A study of Ramazzottius varieornatus and Hypsibius exemplaris with 16 samples.

Results

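Most genes in the transcript set of the tardigrade Ramazzottius varieornatus are represented by a single transcript model, and 55 of 13920 genes are represented by 3 or more. These 55 genes were found from the identifiers, in which a gene number is followed by a transcript number (t1, t2 and so on), and the transcript models of 1 gene are called isoforms here. Isoforms of fewer than 9000 bases were taken as members, which gave 169 of the 14532 transcript models of the species. A set of 51 genes had 3 isoforms, g11629 and g13591 had 4 each, and g7288 and g11071 had 5 each. The 2 isoforms left out for their length were g3051.t3 with 9864 bases and g7549.t3 with 12336, and the longest isoform kept was g7105.t2 with 8301. Both long isoforms were still counted in the sum of their gene.

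An isoform is 1 of several transcripts of the same gene, made by alternative splicing, by another start of transcription or by another transcript end. A cell type can use a different isoform from its neighbours while the summed output of the gene stays similar, so shares within a gene and totals of a gene are separate measures. Storage cells are the free cells of the tardigrade body cavity, and they are known for holding nutrient reserves.

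The study sequenced RNA of 2 tardigrade species, and the R. varieornatus libraries (strain YOKOZUNA-1) are described here. Storage cells (5 libraries) were released by dissecting animals and were taken up by aspiration. Active whole bodies (3 libraries) served as the comparison and contain the storage cells together with all other tissues. All animals were kept at 22 °C and fed with the green alga Chlorella vulgaris, and the labels give no age, sex or number of animals per library. RNA from whole bodies was isolated with TRIzol and a column, while storage cells went straight into lysis buffer, so that sample type and RNA preparation cannot be told apart. Both kinds of sample were then amplified with SMART-Seq v.4, a method that copies mRNA from small inputs. The transcript set carries identifiers only, none of which (0) matched the table of gene names, so neither gene functions nor cell type markers could be checked and no sequence is shown.

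Storage cell libraries held 8228370 to 11174369 estimated counts and whole-body libraries 5404555 to 5601269. Members took 0.272% to 0.409% of the counts in storage cells and 0.454% to 0.490% in whole bodies. Of the 169 members, 34.9% to 62.1% had a count above 0 in a storage cell library and 63.9% to 71.6% in a whole-body library, and 15 had no count in any library. Over all 14532 transcript models, 8326 to 11794 had a count above 0 in storage cells and 12275 to 12384 in whole bodies. Storage replicate 2 stood apart among the storage cell libraries. It had the highest share of members with a count, and g12873 had 3974 counts there, against 4, 0, 1 and 1 in storage replicates 1, 3, 4 and 5 and 2318, 2618 and 2322 in whole bodies. Results that rest on this library are given with and without it.

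Isoforms of these genes share much of their sequence, and reads that match several of them were divided among them by kallisto, a program that assigns reads to transcript models and estimates how many belong to each. Among members with a count above 0, 73.3% to 91.4% had a count that was not whole (tolerance 1e-06) in storage cells and 84.3% to 92.6% in whole bodies, against 9.08% to 10.7% and 10.4% to 11.0% of all transcript models. The isoform values below are therefore mostly estimates from divided reads, and the error of that division is not contained in the deposited values.

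The 55 genes differed widely in how unlike their isoforms were. The listed lengths are coding lengths, since 100% of the members' lengths and 99.6% of all lengths were multiples of 3. Every one of the 185 pairs of isoforms of the same gene therefore differed by a multiple of 3 bases. The gap between the shortest and longest isoform had a median of 633 bases and ranged from 6 to 11331 bases. In 27 genes the longest isoform was at least 2 times as long as the shortest, whereas in 9 genes all isoforms lay within 60 bases of each other. Isoform t1 was the longest in 22 of the 55 genes. The median member had 1386 bases, against 1080 over all transcript models.

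The leading isoform of a gene was defined in each group as the one with the highest mean share of the gene's summed TPM (a measure of abundance per length, made comparable between libraries of unequal depth). Libraries with at least 10 estimated counts for the gene entered that mean. A gene could be compared when it had 10 counts in all 3 whole bodies and in at least 3 storage cell libraries, which 31 of the 55 genes did. Of the 24 others, 10 stayed under 10 counts in every library. Among the 39 genes with 10 counts in all 3 whole bodies, 4 reached 10 counts in no storage cell library and 3 only in storage replicate 2. The 4-isoform gene g13591 had 2, 2 and 0 counts in whole bodies and 0 in all 5 storage cell libraries.

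The leading isoform differed between storage cells and whole bodies in 8 of the 31 genes (25.8%). Among genes with 2 isoforms, the same definition gave a different leader in 57 of 273 (20.9%), so the share in genes with 3 or more isoforms was near this background. The 8 genes were g5077, g6132, g6457, g7269, g7288, g11071, g12715 and g13701, and the other 23 kept their leader. In 1 gene, g12715, the leader of each group exceeded the leader of the other group in every library. A second gene met this when 1 library was left out: g11071 without storage replicate 2, g7288 without storage replicate 3 and g7269 without whole body 1. How many genes with 2 isoforms met it was not counted, so this result has no background value. With shares of estimated counts in place of TPM, 8 genes also switched, of which 7 were the same. There g7288 dropped out, g3251 came in, and no gene was separated in every library (0).

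**Figure D1:**
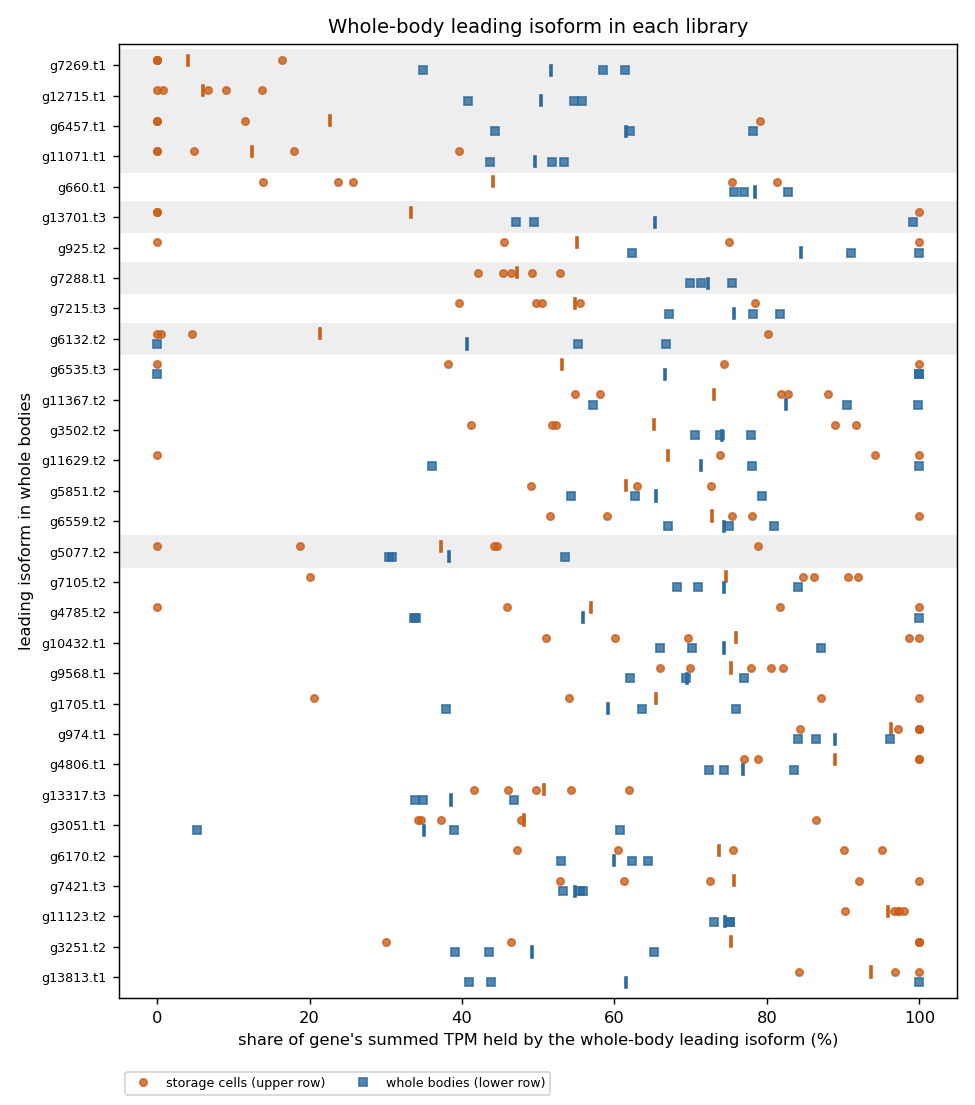
Share of the gene's summed TPM (%, horizontal axis) held by the isoform that led in whole bodies, for the 31 genes with enough counts (1 per row, ordered by the difference between groups); points are libraries of storage cells (upper row of each gene) or whole bodies (lower row), short bars are group means and grey bands mark the 8 genes whose leader differed. The storage cell points of most genes spread more widely than the whole-body points, with the larger SD in storage cells in 23 of 31 genes.

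In g12715 the short isoform t3 (984 bases) had the largest TPM share in storage cells, and the longer t1 (2943 bases) had it in whole bodies. Isoform g12715.t3 held 79.7%, 79.5%, 70.2%, 82.5% and 69.1% of the gene's TPM in storage replicates 1 to 5, against 17.2%, 28.1% and 15.5% in whole bodies 1 to 3. Isoform g12715.t1 held 0.742%, 6.62%, 9.03%, 0% and 13.7% in storage cells, against 55.8%, 40.8% and 54.6% in whole bodies. The lowest storage cell share of g12715.t3 was more than 40 points above the highest whole-body share, and the groups of g12715.t1 did not overlap either. The longest isoform, g12715.t2 (3825 bases), averaged 17.8% ± 2.65 in storage cells (SD, n = 5) and 29.4% ± 2.13 in whole bodies (SD, n = 3), also without overlap.

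The same gene read differently in counts, because TPM divides each count by the effective length, which was 682 to 691 bases for g12715.t3 in storage cells and 674 to 675 in whole bodies. In counts, g12715.t3 held 43.2%, 44.9%, 32.9%, 47.5% and 32.6% in storage cells, against 4.53%, 7.93% and 3.97% in whole bodies. These shares were again separated, but on the mean g12715.t2 led the storage cells, with 55.2%, 40.6%, 50.7%, 52.5% and 42.1% of the counts, against 37.5%, 46.5% and 40.5% in whole bodies. In storage replicate 2 g12715.t3 was ahead of it, and in whole body 2 g12715.t2 was ahead of g12715.t1 (45.6%). The smallest storage cell share of g12715.t3, 32.6% of 742 counts, had a Wilson 95% interval of 29.3% to 36.1%, and the largest whole-body share, 7.96% of 791 rounded counts, one of 6.27% to 10.1%. Such intervals cover counting error only, because PCR copies are not independent molecules and the reads were divided among isoforms. The gene's total was 1281, 1169, 612, 660 and 742 counts in storage cells and 1020, 791 and 917 in whole bodies.

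The usage of g12715 was tested with all other genes by edgeR's diffSpliceDGE, which asks whether the log2 fold changes of a gene's isoforms differ from each other. It did not pass the threshold of 0.05 (adjusted p = 0.141, Benjamini-Hochberg over 304 genes), and the adjusted p ran from 0.00353 with limma's voom and group weights to 1 with a replicate block. Without storage replicate 4, whose g12715.t1 share was the lowest, it was 0.0155. At the level of single isoforms, g12715.t3 rose by 2.22 on the log2 scale in storage cells (SE 0.46, edgeR quasi-likelihood adjusted p = 0.0107), a call lost without whole body 1 (0.0556) or 3 (0.0564). The gene's total differed by -0.72 on the log2 scale and missed the threshold (SE 0.31, edgeR adjusted p = 0.118), which it passed without storage replicate 1 (0.0426).

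**Figure D2:**
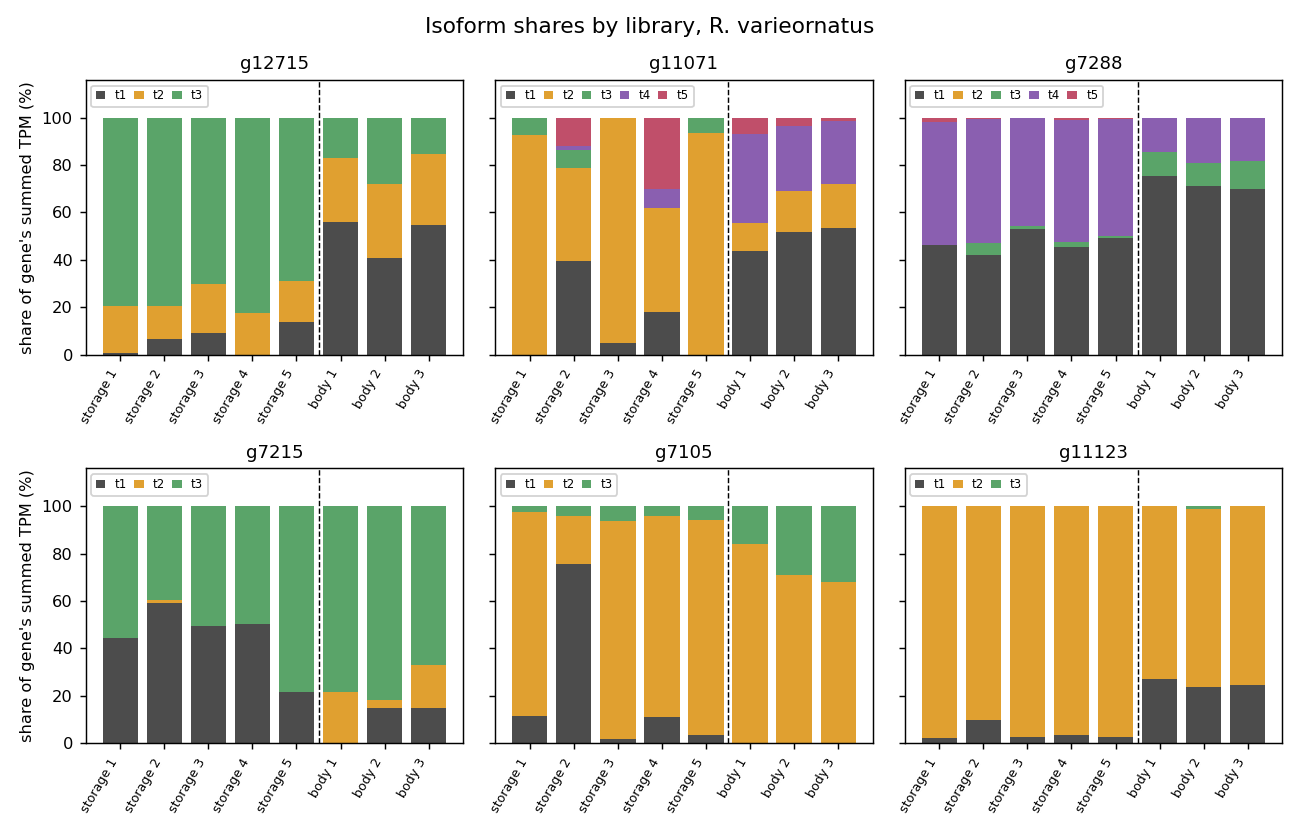
Share of each isoform in its gene's summed TPM (%, vertical axis) in the 5 storage cell libraries and, right of the dashed line, the 3 whole-body libraries, for 6 genes; colours are isoforms t1 to t5. Isoform t3 of g12715 fills 69.1% to 82.5% of the storage cell bars and 15.5% to 28.1% of the whole-body bars, while in g7105 storage replicate 2 departs from the other storage cell libraries.

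Both genes with 5 isoforms also had different leaders by TPM share. In g11071, the isoform t2 (1497 bases) led the storage cells and t1 (3297 bases), the longest, led the whole bodies. Isoform g11071.t2 held 92.5%, 39.3%, 94.9%, 43.9% and 93.6% in storage cells and 11.9%, 17.1% and 18.5% in whole bodies, with no overlap. Isoform g11071.t1 held 0%, 39.6%, 4.84%, 18.0% and 0% in storage cells and 43.7%, 51.7% and 53.4% in whole bodies. Storage replicate 2 was the exception to the switch, since g11071.t1 was marginally ahead of g11071.t2 in it. In counts g11071.t1 led that library with 61.1% against 24.4% for g11071.t2, and it also led storage replicate 4 with 33.1% against 32.7%.

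Another isoform of the gene, g11071.t4, was a large component of the whole-body RNA, with 37.5%, 27.5% and 26.8% of the TPM. In storage cells it held 0%, 1.51%, 0%, 7.97% and 0%, so it was listed at 0 in 3 of the 5 libraries. Isoform g11071.t3 held 0% to 7.63% in storage cells and was listed at 0 in all 3 whole bodies. The counts behind these shares were 508, 591, 299, 323 and 200 in storage cells and 480, 563 and 427 in whole bodies. The usage test did not call g11071 (diffSpliceDGE adjusted p = 0.291), although limma's voom with group weights did (adjusted p = 0.000358). Isoform g11071.t2 rose by 1.93 on the log2 scale (SE 0.60, edgeR adjusted p = 0.0444), while the total of g11071 fell by 1.08 (SE 0.31, edgeR adjusted p = 0.0321). The isoform's call was lost with DESeq2's size factors (0.0682), with no filter on low counts (0.0554), without storage replicate 1, 3 or 5 (0.053 to 0.0752) and without any 1 whole body (0.115 to 0.157), and that of the total without storage replicate 4 (0.0568) or any 1 whole body (0.0785 to 0.124).

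In g7288 the shares were nearly even between a pair of isoforms in storage cells and dominated by one in whole bodies. The short isoform g7288.t4 (345 bases) held 51.8%, 52.3%, 45.3%, 51.3% and 49.3% of the TPM in storage cells and 14.1%, 18.9% and 18.4% in whole bodies. The longest, g7288.t1 (855 bases), held 46.4%, 42.1%, 52.9%, 45.4% and 49.2% in storage cells and 75.5%, 71.3% and 69.9% in whole bodies. Neither isoform overlapped between groups, but within storage cells g7288.t4 led g7288.t1 in 4 of the 5 libraries, in storage replicate 5 by a margin of less than 1 point.

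The effective length of g7288.t4 was 98.7 bases, so each of its counts weighed heavily in TPM. In counts it held 12.8% to 16.7% in storage cells and 2.92% to 4.09% in whole bodies, and g7288.t1 led both groups with 75.9% to 85.1% and 84.7% to 87.6%. Isoform g7288.t2 had an estimated count of 1.56e-07 in whole body 1 and 0 in the other 7 libraries. The switch of g7288 thus appeared in TPM and not in counts, whereas the separation of g7288.t4 between groups was present in both units. The usage test did not call the gene (diffSpliceDGE adjusted p = 0.39), and limma's voom with group weights did (adjusted p = 0.0105). g7288 had the highest or second highest TPM of these genes in either group, and its total fell by 1.42 on the log2 scale (SE 0.42, edgeR adjusted p = 0.0358), a call lost without storage replicate 3 (0.0569) or 5 (0.0681) and without any 1 whole body (0.0948 to 0.121).

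In g7269 the whole-body leader g7269.t1 led no storage cell library (0 of 4 with enough counts). It held 0%, 16.4%, 0% and 0% in storage replicates 2 to 5 and 34.9%, 58.5% and 61.4% in whole bodies, without overlap. The storage cell leader g7269.t2 held 100%, 61.0%, 100% and 47.4% in the same storage cell libraries and 65.1%, 41.5% and 38.6% in whole bodies, and these overlapped. Whole body 1 was led by g7269.t2, which kept the switch from holding in every library. Storage replicate 5 was led by neither of them but by g7269.t3 (432 bases), with 52.6%. The gene had 24, 71, 158 and 33 counts in storage replicates 2 to 5.

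The other 4 switches rested on group means with libraries on both sides. In g5077 the isoforms lay within 39 bases of each other, g5077.t1 held 84.3%, 36.4%, 21.2%, 22.0% and 73.5% in storage cells, and it held 39.6%, 44.8% and 1.46% in whole bodies. The values overlapped, and whole body 3 alone was nearly without g5077.t1. Library by library the leaders ran against this switch. Isoform g5077.t2, which led the whole-body mean, led 3 of the 5 storage cell libraries, and g5077.t1 led 2 of the 3 whole bodies. In g13701 the isoform t1 held 100% in storage replicates 2 and 3 and t3 held 100% in replicate 1, while g13701.t3 held 99.1%, 47.1% and 49.5% in whole bodies. Such all-or-none shares occurred at 11, 48 and 23 counts for the gene in storage cells. Isoform g13701.t1 also led whole bodies 2 and 3, with 52.9% and 50.5%, so g13701.t3 led the whole-body mean through whole body 1. For g6132 and g6457 the whole bodies also disagreed on the leader. The usage tests of these 4 genes and of g7269 gave diffSpliceDGE adjusted p-values between 0.451 and 0.988, and g7269 passed without storage replicate 3 (0.0475).

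The whole bodies shared 1 leader in 19 of the 31 genes and had mixed leaders in 12. Mixed leaders held 5 of the 8 switches, and 3 switches (g7288, g11071 and g12715) were in genes with a single whole-body leader. A single leader in all storage cell libraries was seen in 12 genes. Of 11 genes with 1 leader within each group, 10 had the same leader in both groups and 1, g12715, did not. The share of the whole-body leader had a median SD of 20.1 points among storage cell libraries and 11.2 points among whole bodies.

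Even among whole bodies the shares moved: the range of the leader's share over the 3 libraries had a median of 21.2 points. It exceeded 30 points in 11 genes, whose median was 82.3 counts per whole body, against 623 counts in the 20 genes with a smaller range. Requiring that an isoform with a mean share of at least 5% in either group not overlap between groups, a rule set after values were seen, left 16 of 98 isoforms in 7 of the 31 genes (22.6%). The same rule gave 38 of 273 genes with 2 isoforms (13.9%). These percentages per gene are not like measures. The shares of a gene with 2 isoforms mirror each other, whereas a gene with 3 or more has more shares that can separate.

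Leaders were also compared library by library, in the 19 genes with at least 10 counts in all 8 libraries. A storage cell library shared its leader with a whole-body library in 10 to 15 of the 19 genes (median 12). Pairs of storage cell libraries shared it in 12 to 18 genes (median 13.5), and pairs of whole bodies in 16 to 17. The ranges for storage cell pairs and for mixed pairs overlapped.

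**Figure D3:**
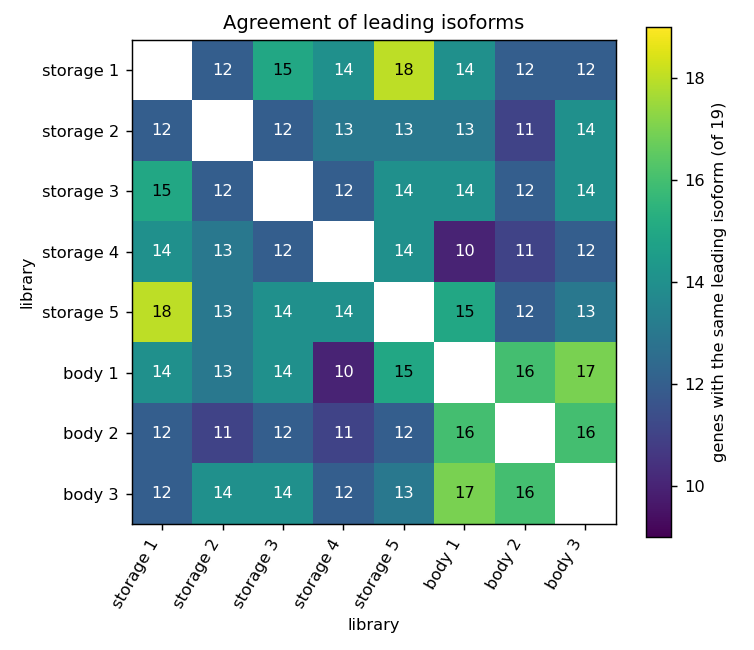
Number of genes, of 19 with 10 or more counts in all 8 libraries, that had the same leading isoform in a pair of libraries; rows and columns are the 5 storage cell and 3 whole-body libraries. Pairs of whole bodies share 16 to 17 leaders, whereas pairs of a storage cell library and a whole body share 10 to 15.

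In the same 19 genes, the mean share of the leading isoform was 80.0%, 62.8%, 73.5%, 67.1% and 80.1% in storage cells and 64.9%, 66.5% and 66.5% in whole bodies. Storage replicates 1, 3, 4 and 5 lay above all whole bodies and storage replicate 2 lay below them. The difference of 6.75 points did not pass a two-sided exact permutation test of 5 against 3 libraries (p = 0.25, adjusted p = 0.3125 over 5 such measures). The effective number of isoforms, which is 1 when a single isoform holds everything, averaged 1.84 ± 0.230 in storage cells and 2.13 ± 0.0527 in whole bodies (SD, n = 5 and 3; exact permutation p = 0.107, adjusted p = 0.238).

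Isoform t1 led 30.5% ± 10.1 of the 19 genes in storage cells and 45.6% ± 3.04 in whole bodies (SD, n = 5 and 3; exact permutation p = 0.143, adjusted p = 0.238). The longest isoform led 44.2% ± 7.98 in storage cells and 49.1% ± 3.04 in whole bodies (exact permutation p = 0.5, adjusted p = 0.5). By shares of counts, t1 led 35.8% in storage cells and 40.4% in whole bodies, a difference of -4.56 points (exact permutation p = 0.536), and the effective number of isoforms differed by -0.179 (exact permutation p = 0.286).

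Leaving out a library also changes which genes have 10 counts in all libraries. Without storage replicate 1 (22 genes), the leading share differed by 3.54 points (exact permutation p = 0.514) and the effective number of isoforms by -0.179 (p = 0.229, exact). Without storage replicate 2 (21 genes), the leading share was 8.44 points higher, the effective number differed by -0.332, and t1 led 18.3 points fewer genes in storage cells (exact permutation p = 0.0571 each). The smallest p that 5 against 3 libraries allow is 0.0179, and without 1 storage cell library it is 0.0286.

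After all libraries had been thinned to 5404544 counts, 48, 67, 61, 57 and 50 members had at least 5 counts in storage cells and 93, 87 and 79 in whole bodies. The groups did not overlap, and the difference of -29.7 members had an exact permutation p of 0.0357, which was 0.179 after adjustment over the 5 measures. That p is the smallest the test allows. Adjusted over 5 measures, it could not pass by itself, whatever the size of the difference. The mean difference was -33.6 members at a minimum of 1 count and -27.9 at a minimum of 10. Fewer transcript models were also found in storage cells over the whole set. Before thinning, 8326 to 11794 of all 14532 had a count above 0 there, against 12275 to 12384 in whole bodies.

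**Figure D4:**
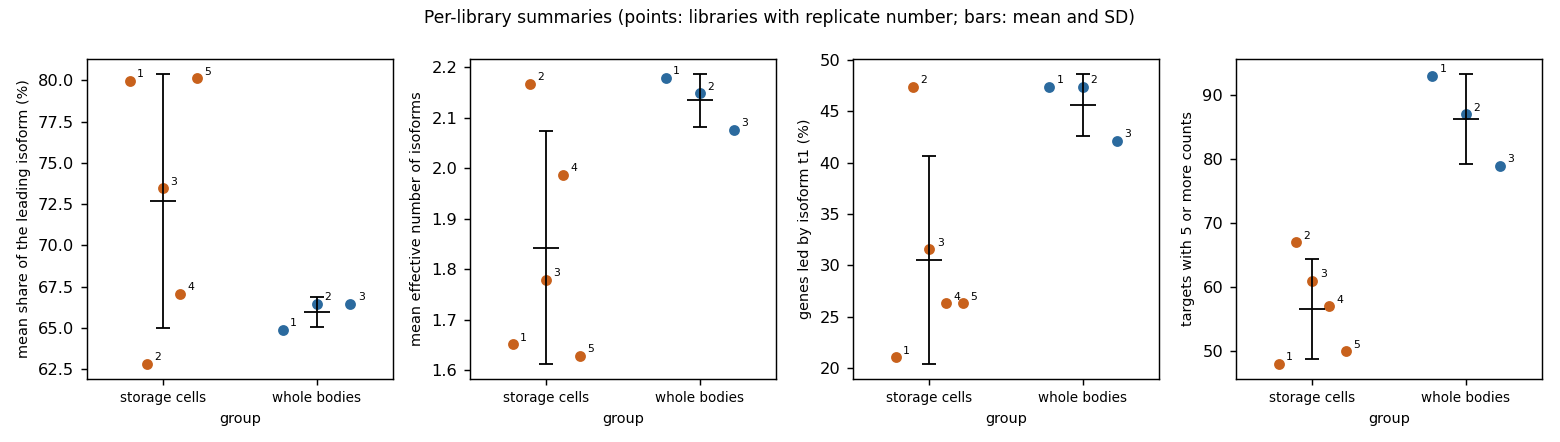
Per-library measures (vertical axes, with units) for the 5 storage cell libraries on the left and the 3 whole bodies on the right of each panel; points are libraries numbered by replicate, and bars are the mean and SD. Storage replicate 2 lies near the whole bodies in the first 3 panels, and the number of members with 5 or more counts (48 to 67 in storage cells, 79 to 93 in whole bodies) is the measure without overlap.

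Changes of usage passed the threshold in 2 of the 32 member genes tested, g7105 and g7215, against 2.3% of the 304 genes with isoforms tested. Neither of these genes switched its leader. The unadjusted p was under 0.05 in 8 of the 32 genes and in 32 of the 304. No single isoform of the 80 tested passed (0 calls by diffSpliceDGE). Counts of calls depended on the method: limma's voom with group weights called 8 of the 32 genes, Simes' combination of the isoform tests called 0, and 5 were called without storage replicate 2. Shares over all genes with isoforms are not given for these alternatives, so their counts have no background value.

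The gene g7105 has long isoforms of similar length (8289, 8301 and 7779 bases). Its minor isoform g7105.t3 held 2.37%, 4.26%, 6.29%, 4.20% and 5.97% of the TPM in storage cells, against 15.8%, 29.0% and 31.8% in whole bodies. Isoform g7105.t1 held 11.5%, 75.7%, 1.71%, 11.1% and 3.45% in storage cells and 0.0459%, 0.0193% and 0.0282% in whole bodies. Both isoforms were separated between groups, t3 lower and t1 higher in storage cells, and the t1 share of storage replicate 2 was far above the other 4.

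Storage replicate 2 held 429 of its 565 counts of g7105 in t1, while each whole body had under 1 estimated count of g7105.t1 in at least 1121 counts of the gene. The leading isoform g7105.t2 held 86.1%, 20.1%, 92.0%, 84.7% and 90.6% in storage cells and 84.1%, 71.0% and 68.1% in whole bodies, and these overlapped. The usage of g7105 changed with a diffSpliceDGE adjusted p of 0.00611. Without storage replicate 2 it was 0.000383, and without whole body 3 it missed the threshold (0.0767), as it did under Simes' combination (0.103). Of its isoforms, g7105.t1 had the lowest unadjusted diffSpliceDGE p (0.000412), against 0.0355 for g7105.t3 and 0.999 for g7105.t2. Isoform g7105.t1 passed the filter on low counts through the storage cells, where it is high. The total of g7105 fell by 2.19 on the log2 scale (SE 0.24, edgeR adjusted p = 0.00177).

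In g7215, the isoform t1 (1851 bases) took a larger share beside the leader t3 (2097 bases). Isoform g7215.t1 held 44.5%, 59.3%, 49.3%, 50.2% and 21.5% in storage cells and 0.0886%, 14.9% and 14.9% in whole bodies. Isoform g7215.t2 (2016 bases) held at most 1.10% in storage cells and 21.7%, 3.39% and 17.9% in whole bodies. Both were separated between groups, t1 higher and t2 lower in storage cells. The leader g7215.t3 held 55.5%, 39.6%, 50.5%, 49.8% and 78.5% in storage cells and 78.2%, 81.8% and 67.1% in whole bodies, with overlap.

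Usage of g7215 changed with a diffSpliceDGE adjusted p of 0.0338, and its total did not pass (log2 fold change -0.40, SE 0.29, edgeR adjusted p = 0.328). Of its isoforms, g7215.t2 had the lowest unadjusted diffSpliceDGE p (0.000513), against 0.066 for g7215.t1 and 0.671 for g7215.t3. Isoform g7215.t2 was nearly without counts in storage cells and passed the filter on low counts through the whole bodies, where it is high. The usage call was lost without storage replicate 1 (0.0737), 3 (0.0992) or 4 (0.0644), without whole body 1 (0.0977), 2 (0.0602) or 3 (0.146), and under Simes' combination (0.103). It held without storage replicate 2 (0.00368).

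A further gene with separated shares, g11123, was chosen after its values were seen. Isoform g11123.t1 (2979 bases) held 2.01%, 9.81%, 2.73%, 3.33% and 2.80% in storage cells and 27.0%, 23.7% and 24.8% in whole bodies, and g11123.t2 (2046 bases) led every library with at least 73.0%. The isoform g11123.t1 fell by 3.01 on the log2 scale in storage cells (SE 0.69, edgeR adjusted p = 0.0150), a call lost without any 1 whole body (0.0563 to 0.0566). Usage of g11123 missed the threshold (diffSpliceDGE adjusted p = 0.0688) and passed it without storage replicate 2 (0.00249).

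The most abundant of these genes in storage cells were g9568, g7288, g13317, g6170 and g3502. In g9568, the isoform t1 (1989 bases) led all 8 libraries, with 66.0% to 82.2% of the TPM in storage cells and 62.1% to 77.0% in whole bodies. Summed over isoforms, g9568 had 778, 151, 154, 284 and 454 TPM in storage cells and 74.3, 50.9 and 55.6 TPM in whole bodies. Every storage cell library exceeded every whole body, replicate 1 by the most. Its total rose by 3.38 on the log2 scale (SE 0.72, edgeR adjusted p = 0.0108), and the usage test did not pass (diffSpliceDGE adjusted p = 0.554). Without storage replicate 2 the usage test of g9568 passed (0.000254). Without any 1 whole body the total missed the threshold (0.0514 to 0.0587).

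The isoforms of g13317 lie within 48 bases of each other and all 3 held a sizeable share of the gene's TPM. Isoform g13317.t3 led with 41.5%, 49.7%, 54.2%, 62.0% and 46.0% in storage cells and 34.9%, 33.8% and 46.8% in whole bodies, and in whole body 2 g13317.t1 was ahead with 41.8%. Its summed TPM was 223, 62.1, 198, 178 and 312 in storage cells and 297, 282 and 299 in whole bodies. These totals overlapped, with storage replicate 2 lowest, and the log2 difference of 0.28 missed the threshold (SE 0.63, edgeR adjusted p = 0.77).

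In g6170 the isoform g6170.t2 held 90.1%, 60.5%, 75.6%, 47.2% and 95.1% in storage cells and 64.4%, 53.1% and 62.3% in whole bodies. The whole-body values lay inside the storage cell range, and storage replicate 4 was led by g6170.t1. The usage test of g6170 did not pass (diffSpliceDGE adjusted p = 0.985) and did so without whole body 3 (0.0251). In g3502 the isoform g3502.t2 held 88.9%, 91.7%, 41.2%, 52.3% and 51.8% in storage cells and 73.8%, 77.9% and 70.6% in whole bodies. Storage replicates 1 and 2 lay above the whole bodies and replicates 3, 4 and 5 below them. The total of g3502 rose by 0.83 on the log2 scale (SE 0.22, edgeR adjusted p = 0.0231), a call lost with DESeq2's size factors (0.0754), without storage replicate 5 (0.0516) and without any 1 whole body (0.0964 to 0.103).

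In whole bodies g7288, g13317, g12873, g6170 and g7215 had the highest summed TPM. The gene g12873 had 0.255, 164, 0, 0.0377 and 0.0418 TPM in storage cells and 279, 315 and 272 TPM in whole bodies, so storage replicate 2 alone was of the same order as the whole bodies. Its isoform g12873.t2 held 45.8% in storage replicate 2 and 62.2%, 61.6% and 67.0% in whole bodies. No usage could be compared in the other storage cell libraries, which had at most 4 counts. The log2 fold change of g12873 was -2.60 (SE 2.45, edgeR adjusted p = 0.454). Without storage replicate 2 its total was called lower (edgeR adjusted p = 0.00104). In that fit the gene passed the filter on low counts through the whole bodies, where it is high. Its fitted fold change there depends on the prior count and is not given.

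Gene totals, tested on summed counts, were lower in storage cells for 15 of the 43 member genes tested (34.9%), against 17.4% of all 10174 genes, and higher for 2, against 14.3%. The other 26 did not pass, and 12 of the 55 genes were left out by the filter on low counts. The median log2 fold change was -1.10 over the 43 genes and -0.12 over all genes. These genes are long: their longest isoforms had a median of 1902 bases, against 1074 over all genes. Among the 2756 genes tested with at least 1902 bases, the median log2 fold change was -1.24 and 30.7% were lower. Among shorter genes the median log2 fold change was 0.29. The members include genes on both sides of 1902 bases, so neither class matches them in length. Whether length accounts for the members' median was not tested. A lower total in storage cells than in whole bodies cannot be told apart as fewer cells with the transcript or less of it per cell.

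In 26 of the 43 genes all storage cell values lay below all whole-body values (31.3% of all genes did), and in 4 they lay above (18.9%). Under DESeq2's size factors 18 member genes were called, 1 of them higher. Without storage replicate 2 the call count was 23, 3 of them higher, and the share over all genes in that fit is not given. Leaving out any 1 whole body left 5 calls, none of them higher (0).

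**Figure D5:**
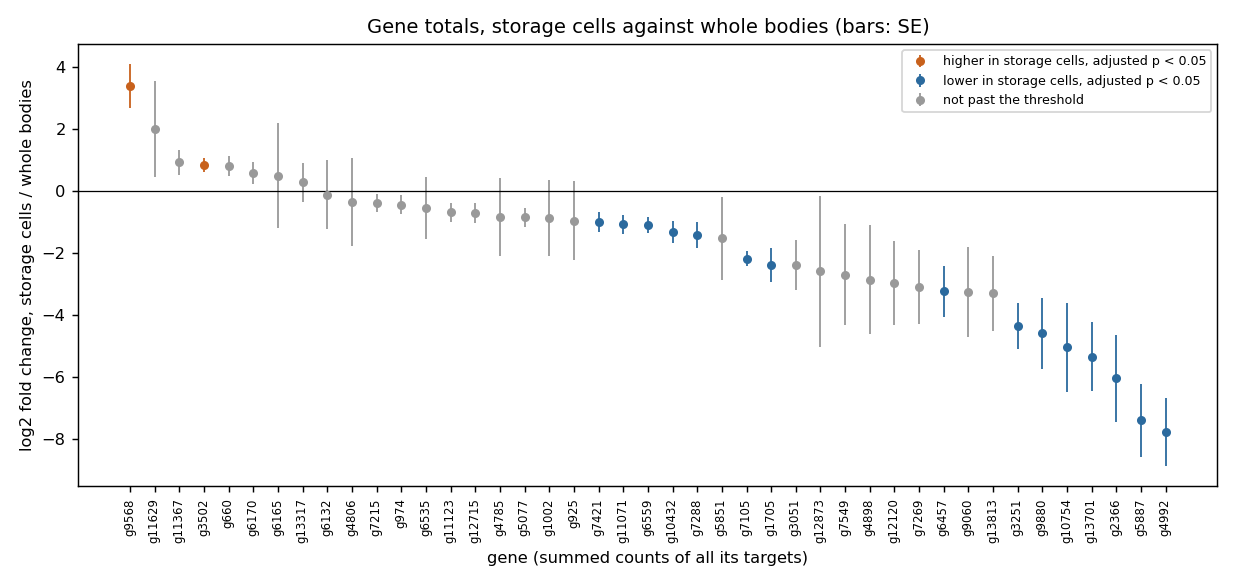
Log2 fold change of gene totals, storage cells over whole bodies (vertical axis, bars are SE), for the 43 genes tested, ordered by size; orange marks genes higher and blue genes lower in storage cells at an adjusted p under 0.05, grey the rest. Of the 43 genes, 2 are orange and 15 blue, and the fitted values at the far right belong to genes nearly without counts in storage cells.

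The genes with the lowest totals relative to whole bodies were nearly without counts in storage cells. In g4992 there were 0, 2, 2, 0 and 0 counts in storage cells and 130, 105 and 123 in whole bodies, and the isoform g4992.t1 held most of the whole-body TPM. The total of g4992 was called lower (edgeR adjusted p = 0.00375). In g2366 there were 0, 8, 0, 0 and 2 counts in storage cells and 78, 103 and 65 in whole bodies, and its total was called lower (edgeR adjusted p = 0.0152), a call lost without any 1 whole body (0.0531 to 0.06). No storage cell library of either gene reached 10 counts, so both passed the filter on low counts through the whole bodies, where they are high. Their fitted fold changes depend on the prior count and are not given, and isoform shares in storage cells could not be set against those of whole bodies.

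The gene g13701 had 11, 48, 23, 3 and 0 counts in storage cells and 473, 348 and 333 in whole bodies, and its total fell by 5.36 on the log2 scale (SE 1.11, edgeR adjusted p = 0.0101). The corresponding counts of g10754 were 0, 9, 0, 6 and 0 in storage cells and 68.0, 57 and 55.0 in whole bodies, and the total was called lower (edgeR adjusted p = 0.0312). Those of g9880 were 0, 9, 17, 1 and 3 in storage cells and 93, 94 and 69 in whole bodies, and the total was called lower (edgeR adjusted p = 0.0193). Both passed the filter through the whole bodies. In all 3 genes the groups were apart, and without any 1 whole body the calls of g10754 (0.0899 to 0.0976) and g9880 (0.0603 to 0.0687) were lost. The 4-isoform gene g11629 had 308, 0, 240, 133 and 21 counts in storage cells and 21, 25 and 19 in whole bodies, so that storage replicates 1, 3 and 4 exceeded the whole bodies, replicate 5 lay among them and replicate 2 below. Its total did not pass (log2 fold change 2.01, SE 1.54, edgeR adjusted p = 0.354).

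At the level of single isoforms, 88 of the 169 members were tested and 21 passed (edgeR quasi-likelihood, 30.2% of all 10483 transcript models passed). Of these, 16 were lower in storage cells (16.6% over all) and 5 were higher (13.6%). The 5 higher isoforms were g12715.t3, g9568.t1, g9568.t3, g7105.t1 and g11071.t2. Among the 16, g4992.t1, g5887.t1 and g10754.t3 had a rounded count of 0 in every storage cell library. At or near 0 in most of them were g2366.t3, g4898.t1, g7215.t2, g7269.t1, g9880.t2 and g13701.t3. All of these passed the filter on low counts through the whole bodies, where they are high. The 21 isoforms belonged to 18 genes, and in 5 of these the gene's total did not pass. In 1 gene, g7105, isoforms passed in both directions: t1 was higher while t2 and t3 fell by 2.19 and fell by 4.65 on the log2 scale (SE 0.48 and 0.55). Isoform g7105.t1 passed the filter on low counts through the storage cells, where it is high, and its fitted fold change is not given. The call of g7105.t3 was lost with limma's voom (0.0882). Without any 1 whole body g7105.t1 was not called (0.0798 to 0.107), and g7105.t2 was not called without whole body 1 (0.0512) or 2 (0.0538). Both g9568 isoforms lost their call without whole body 2 or 3 (0.0569 to 0.059) and g9568.t1 also without whole body 1 (0.0526). Limma's voom with group weights called 44 members and DESeq2 called 38, and 33 were called without storage replicate 2. Shares over all transcript models are not given for these alternatives.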

How the data were processed

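The authors deposited 1 table per library that lists estimated counts and TPM for each transcript model, per the file headers. The deposited estimated counts are not normalized, and the authors' TPM values divide counts by effective length. kallisto 0.46.1 and bcl2fastq 2 are named in the submitters' processing notes, while build and annotation were not given in the sources used here. Samples were grouped by title (5 storage cell and 3 whole-body libraries, 8228370 to 11174369 and 5404555 to 5601269 counts). The labels call replicates biological, without saying whether animals were shared.

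Counts were rounded and fitted over all R. varieornatus transcript models or genes with edgeR 4.0.16 (R 4.3.3; filterByExpr, TMM, quasi-likelihood; diffSpliceDGE for usage), with Benjamini-Hochberg adjustment over all features tested and a threshold of 0.05. SEs are log2 fold changes over the root of F. Fold changes compare storage cells with whole bodies after TMM scaling, so they can differ from ratios of TPM. Per-library measures used two-sided exact permutation tests (Python 3.11.15, scipy 1.17.1). limma 3.58.1, DESeq2 1.42.0, DESeq2 size factors, no filter, a replicate block, and leaving out each library were alternatives. Shares under 0.0005% are printed as 0%. The code was tested on simulated data.

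The members and lists were chosen with earlier results of these data known. Named genes were those with a switch in every library, those called for usage, the 5 highest by TPM in each group, up to 5 called higher and 5 lower with separated groups and a mean of 10 CPM, and those with 4 or 5 isoforms. The other switching genes, g11123 and g660 were named after values were seen.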

Additional observations from a re-analysis of the deposited data

Results flagged for a closer look

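Of 47 measures screened over the storage cell libraries, 7 had a library that stood far from the others by Dixon's criterion, and chance alone flags about 1 in 20. The percentage of genes led by their longest isoform was 57.9 in storage replicate 3, against 36.8 to 42.1 in the other 4 libraries. The summed TPM of g12873 was 164.5 in storage replicate 2 (0 to 0.255 in the others), and that of g2366 was 0.216 in the same library (0 to 0.0532).

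The other 4 were isoform shares of TPM. Isoform g7105.t2 held 20.1% in storage replicate 2, against 84.7% to 92.0% in the other 4 libraries. Isoform g6457.t1 held 79.1% in storage replicate 2, against 0% to 11.5% in 3 others. Isoform g6132.t2 held 80.2% in storage replicate 1, where the other 3 libraries with enough counts held up to 4.53%. Isoform g7269.t1 held 16.4% in storage replicate 3 and 0 in the other 3. Storage replicate 2 was the distant library in 4 of the 7.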

How the results depend on the processing

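Genes with a switched leader numbered 6 to 10 under all alternatives, against 8. The usage calls (2) were 8 with voom, 0 with Simes' combination and 1 to 5 when 1 library was left out. Gene-level calls (17) were 30 with voom and 5 to 23 without 1 library, and isoform-level calls (21) were 44 with voom, 38 with DESeq2 and 6 to 33 without 1 library. These are counts of members, and the shares over all genes or transcript models in the same fits are not given. With the replicate number as a block, 0 genes passed in usage, 0 in totals and 0 isoforms. Storage replicates 4 and 5 have no whole body of the same number, so only replicates 1 to 3 inform the comparison in that fit. It is not a like-for-like alternative. Whether the numbers pair the samples is not stated in the labels. Deviations of same-numbered libraries correlated by 0.0367, 0.0344 and 0.0125 over 10483 transcript models, and 2 of 6 libraries correlated best with their own number. So few libraries of unlike sample types cannot exclude a pairing.

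Of directions, the percentage of genes led by the longest isoform turned to 1.75 points by counts (p = 0.929, exact permutation). Gene-level log2 fold changes of uncalled genes also turned: g6132 (-0.57 to 0.19 without 1 library, 0.11 without storage replicate 4, 0.0017 without whole body 2), g11629 (-0.0096 with voom) and g13317 (-0.55 with the block, -0.20 to 0.53 without 1 library). The cause was not tested. Over all genes, 3231 were called with TMM (1459 higher) and 3014 with DESeq2's size factors. Depth limits the shares, since 24 of the 55 genes had too few counts to compare.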

Other observations

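Some isoform shares fell on separate sides within the storage cell libraries themselves. In g660, named after its values were seen, the short isoform g660.t3 (831 bases) held 72.0%, 62.1% and 65.2% of the TPM in storage replicates 1, 4 and 5 and 1.23% and 1.12% in replicates 2 and 3, against 6.22%, 5.29% and 0% in whole bodies. Its isoform g660.t1 (1425 bases) held 13.9%, 23.8% and 25.7% in the first set of libraries and 81.4% and 75.4% in the other, against 76.9%, 82.8% and 75.7% in whole bodies. The mean leader was g660.t1 in both groups, and the usage test did not pass (diffSpliceDGE adjusted p = 0.423). Replicates 2 and 3 thus resembled the whole bodies in g660, a set of libraries that differs from the one in g3502.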
